A study of Mus musculus with 10 samples.

Results

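Amino acid carriers of the intestinal epithelium fall into those that take up dietary amino acids at the brush border and those that supply the cell itself, several of which are induced under stress. A set of 10 such genes was chosen by name, with earlier results of these data known. They were Slc7a11, Slc7a5, Slc7a1, Slc1a4, Slc1a5, Slc38a2, Slc3a2, Slc7a9, Slc3a1 and Slc6a19. All 10 were measured, among 22180 genes with a probe set given exactly 1 symbol, and each was read from the probe set with the highest mean over the 10 arrays. RNA came from jejunum, cut midway along the small bowel of female mice aged 10 to 12 weeks. The knockout group (n = 5 arrays) was Pcyt1aLoxP/LoxP;VilCreERT2, in which the villin promoter drives a tamoxifen-inducible Cre recombinase in the intestinal epithelium. The control group (n = 5 arrays) was Pcyt1aLoxP/LoxP without Cre. Both groups were given tamoxifen for 5 days, and both ate a high-fat diet for 3 days, fasted overnight and ate the same diet for 2 hours. Only the knockout group carried Cre, so loss of Pcyt1a and activity of Cre cannot be told apart here.

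Many amino acid carriers of the Slc7 family are light chains that reach the cell surface only when joined by a disulfide bond to a heavy chain. Slc3a2 (4F2hc) is the heavy chain of the cystine-glutamate exchanger Slc7a11 (xCT) and of the large neutral amino acid exchanger Slc7a5 (LAT1), and Slc3a1 (rBAT) is that of Slc7a9 in the brush border. Transcription of several carriers for the cell's own supply is raised by ATF4, the effector of the integrated stress response, which is translated when amino acids are short or the endoplasmic reticulum is stressed. ATF4 binds composite C/EBP-ATF elements, and Slc7a11 is also a target of NRF2, the regulator of the response to oxidants.

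The promoters of Slc7a11 and Slc1a4 are shown because they were the members whose window held the core of a C/EBP-ATF element. RefSeq windows of 250 bases before to 50 after the start (GRCm38.p6) were found for 8 of the 10 genes, in 10 windows, and not for Slc7a5 and Slc1a5. The motif TGATGNAA was searched on both strands, and its matches are in capitals. Bases of Slc7a11 from -150 to -1 relative to the start are chr3:50443614-50443763, minus strand, and the 30 bases around the start of Slc1a4 are chr11:20332699-20332728, minus strand.
Slc7a11: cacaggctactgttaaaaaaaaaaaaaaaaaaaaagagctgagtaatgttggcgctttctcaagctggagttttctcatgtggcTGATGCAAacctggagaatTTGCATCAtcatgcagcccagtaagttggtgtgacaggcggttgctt
Slc1a4: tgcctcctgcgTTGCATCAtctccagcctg

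Slc7a11 held 2 matches, 1 on each strand, at -66 to -59 and at -47 to -40. Slc1a4 held 1 match, on the opposite strand, from -4 to 4 across its start. Of 32851 RefSeq windows of this length, 3.97% held at least 1 match and 0.0700% held 2 or more. The motif TGACNNNGC, the core of the antioxidant response element that NRF2 binds, was found in the windows of Slc7a1 and Slc38a2 and in 12.4% of all windows, and in no member did it overlap TGATGNAA. These matches are a description of letters in a short window, and binding was not measured.

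Enterocyte genes were bright on all arrays, though they do not mark the region. The 9 enterocyte markers (Vil1, Cdh17, Epcam, Alpi, Fabp2, Sis, Lct, Apoa4 and Anpep) had mean log2 intensities of 11.9 to 13.8, and the 5 measured genes of the exocrine pancreas, an organ nearby, had 3.11 to 6.12. Pcyt1a, the targeted gene, stood at 9.22 ± 0.20 (SD, n = 5) in control arrays but at 7.51 ± 0.16 (SD, n = 5) in knockout arrays, with no overlap. Knockout 1 stood apart in ileal genes, with a list mean of -1.42 around the gene means, against 0.89 to 1.67 in the other knockout arrays and -1.20 to -0.20 in control. Proximal intestine genes lay the other way, with 5 of 6 lower in knockout, where 49.9% of all genes were higher. Knockout 1, at 0.48, was above all controls in their mean. Of the 6 proximal and 5 ileal genes measured, 0 passed limma's test at an adjusted p under 0.05. The means of both lists differed between the groups apart from knockout 1, and position along the gut was not tested. Control 5 stood apart in Paneth cell genes, at -2.03, against 0.13 to 1.00 in the other control arrays. Array medians of intensity were 45.8 to 48.1.

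Of the 10 carriers, 1 changed past the threshold: Slc7a11 rose, and 9 genes did not pass limma's test at an adjusted p under 0.05 over all genes. Over all 22180 genes, 0.343% passed, and 0.171% passed with a higher value in knockout. Values were higher in knockout for 9 of the 10 and for 49.9% of all genes. The median log2 difference of the 10 was 0.37, against -0.000354 over all genes. At an unadjusted p under 0.05 stood 5 of the 10, 4 higher and 1 lower, where 12.1% of all genes did, 5.82% higher and 6.25% lower. Because the members were chosen with earlier results of these data known, these contrasts with all genes are no independent evidence about the set. The 6 carriers of the cell's own supply had differences from 0.04 (SE 0.17) for Slc38a2 to 1.79 for Slc7a11, with a median of 0.67. The 3 brush border genes had a median of 0.23, and Slc3a2 was the member with a lower value. In whole tissue, fewer cells of a type and less RNA per cell cannot be told apart.

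**Figure D1:**
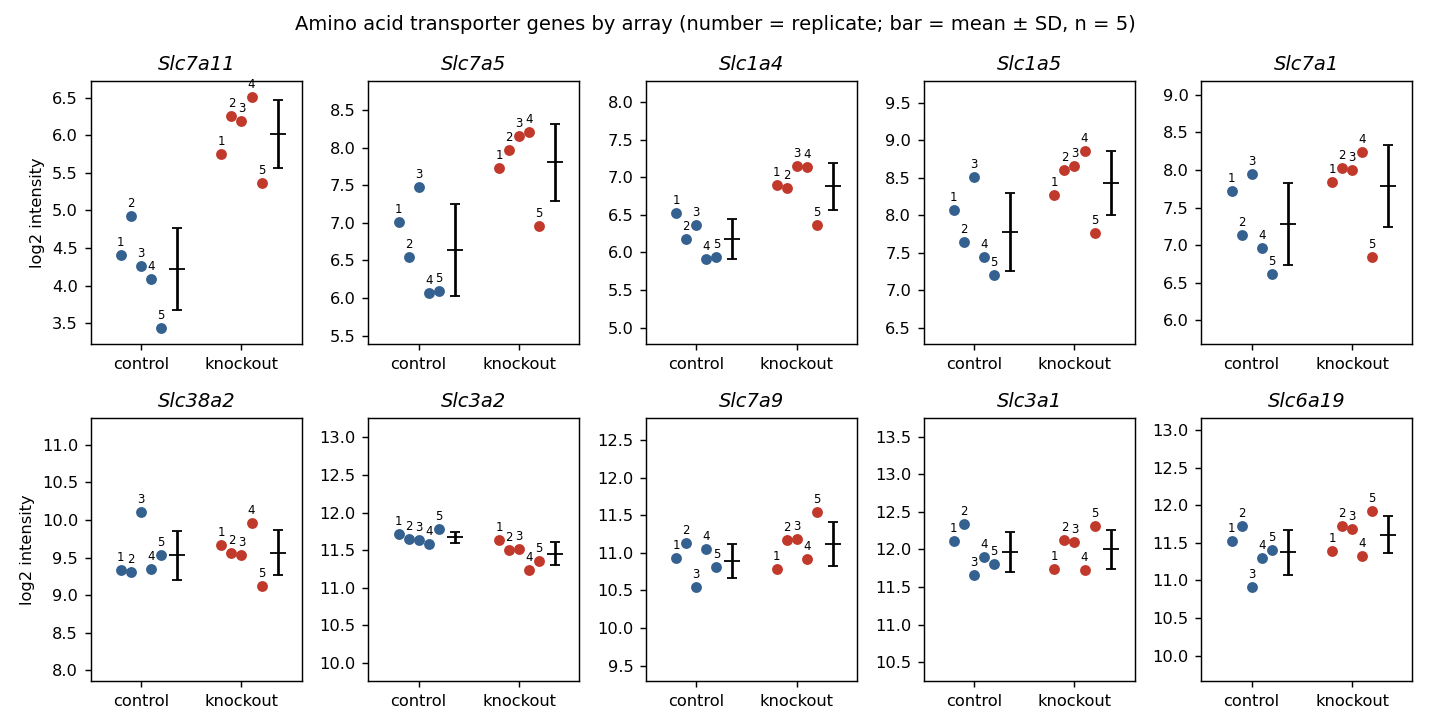
Log2 intensity of each gene (vertical axis, every panel spanning the same number of log2 units) in the 5 control and 5 knockout arrays, with the replicate number beside each point and mean ± SD as a bar. The groups are separate for Slc7a11 and overlap in the other 9 genes.

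Slc7a11 imports cystine, the source of cysteine for glutathione, in exchange for glutamate. Its log2 intensity was 5.75, 6.26, 6.19, 6.51 and 5.37 in knockout 1 to 5, and 4.41, 4.93, 4.26, 4.09 and 3.43 in control 1 to 5. Every knockout array was above every control array, with knockout 5 the lowest of its group and control 2 the highest of its own. The difference was 1.79 on the log2 scale (SE 0.26), or 3.46-fold (95% confidence interval 2.33 to 5.14, limma adjusted p = 0.0185). An exact permutation test, two-sided, gave p = 0.00794, the lowest value open to 5 arrays against 5. Groups without overlap were seen in 1 of the 10 carriers, and in 2.77% of all genes (1.2% with knockout above control).

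The signal of Slc7a11 was dim. Control arrays had intensities of 10.8 to 30.4, all below the array medians, and knockout arrays had 41.3 to 91.1. The fold change of a dim probe set can be understated. Without knockout 1 and control 5 the log2 difference was 1.66 (adjusted p = 0.0144). The call ended when any of knockout 2, 3 or 4 or control 1 or 4 was left out, with differences of 1.67 to 1.84 and adjusted p of 0.0511 to 0.0652. It ended as well when each array's ileum list mean entered the fit as a covariate, at 1.53 (SE 0.36, adjusted p = 0.373). Apart from knockout 1, at -1.42, that list mean follows the groups. It was 0.89 to 1.67 in the other knockout arrays and -1.20 to -0.20 in control. Over all genes, 1 passed in that fit. For each carrier, the fit therefore rests on knockout 1 to tell ileal signal from group, and it cannot decide between them.

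A second probe set of Slc7a11 lay near the dimmest signals of the array, where a change may not be measurable. It stood at 2.58, 2.87, 2.68, 2.83 and 2.93 in knockout and at 2.63, 2.83, 2.68, 2.68 and 2.49 in control, and the groups overlapped. Its difference was 0.12 (SE 0.09), with an interval of -0.09 to 0.32. Only 4.41% of single-symbol probe sets had a lower mean than this one, whereas 35.1% were dimmer than the brighter probe set. The files do not say which part of the transcript either probe set reads.

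**Figure D2:**
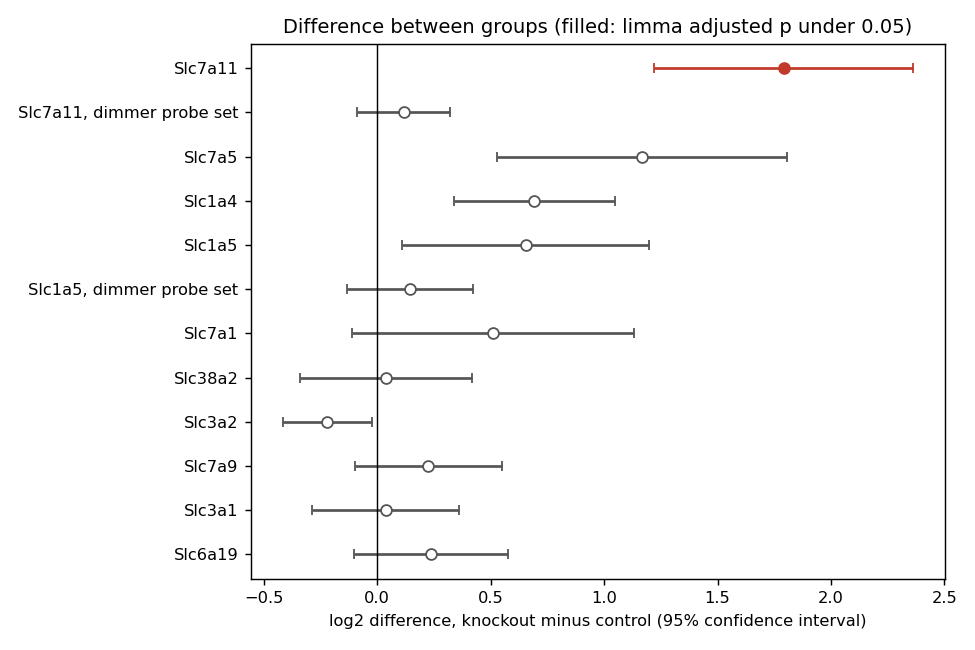
Log2 difference of each gene, knockout minus control (horizontal axis), with its 95% confidence interval from limma, and the dimmer probe sets of Slc7a11 and Slc1a5 below the brighter ones. The brighter probe set of Slc7a11, at 1.79, is the filled point, past an adjusted p of 0.05.

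Slc7a5 carries leucine and other large neutral amino acids in exchange for glutamine. It stood at 7.73, 7.97, 8.16, 8.21 and 6.96 in knockout 1 to 5, and at 7.01, 6.55, 7.48, 6.06 and 6.10 in control 1 to 5. Knockout 1 to 4 were above every control array, while knockout 5 lay below controls 1 and 3. The difference of 1.17 (SE 0.29), or 2.24-fold (1.44 to 3.49), did not pass over all genes (limma adjusted p = 0.123).

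Slc1a4 (ASCT1) exchanges alanine, serine, cysteine and threonine. Its values were 6.90, 6.86, 7.14, 7.13 and 6.36 in knockout, and 6.53, 6.18, 6.37, 5.92 and 5.94 in control. Again 4 of 5 knockout arrays were above all controls and knockout 5 was not. Its difference was 0.69 (SE 0.16), or 1.62-fold (1.27 to 2.07, limma adjusted p = 0.0959). This gene passed without knockout 5, at 0.82 (adjusted p = 0.0395).

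Slc1a5 (ASCT2), a glutamine exchanger, stood at 8.26, 8.61, 8.66, 8.86 and 7.77 in knockout and at 8.07, 7.65, 8.51, 7.44 and 7.21 in control. Its knockout arrays 2, 3 and 4 were above all controls, and all 5 were above the control median. The difference was 0.65 (SE 0.25, limma adjusted p = 0.322). A dimmer probe set of Slc1a5 had a difference of 0.14 (SE 0.13), and the mean of both one of 0.40.

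Slc7a1 (CAT1) takes up arginine and lysine. In knockout it lay between 6.84 and 8.24, in control between 6.62 and 7.95, with a difference of 0.51 (SE 0.29, limma adjusted p = 0.521), or 0.33 without knockout 1 and control 5. Slc38a2 (SNAT2), a sodium-coupled carrier of neutral amino acids and a known target of amino acid shortage, lay between 9.12 and 9.96 in knockout arrays and between 9.31 and 10.1 in control arrays. Its difference was 0.04 (SE 0.17), with an interval of -0.34 to 0.42. The sign of that difference turned when knockout 4 or control 1, 2 or 4 was left out, and with crypt lists as a covariate.

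Slc3a2, the shared heavy chain, had lower values in most knockout arrays, unlike its light chains Slc7a11 and Slc7a5. Its light chain Slc7a8, outside the 10, was lower in knockout as well, at -0.38 (SE 0.09, limma adjusted p = 0.106). Slc3a2 stood at 11.64, 11.51, 11.51, 11.24 and 11.36 in knockout 1 to 5, and at 11.71, 11.65, 11.63, 11.58 and 11.78 in control 1 to 5. Knockout arrays 2 to 5 were below all controls, and knockout 1 lay among them. The difference was -0.22 (SE 0.09, interval -0.42 to -0.02, limma adjusted p = 0.355), and -0.08 with the ileum covariate. Within an array, the log2 value of Slc7a11 minus that of Slc3a2 was 2.01 higher in knockout (SE 0.35). Since Slc7a11 alone keeps the groups apart, this value is no separate evidence on Slc3a2.

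At the brush border, Slc7a9 (b0,+AT) and its heavy chain Slc3a1 take up cystine, lysine and arginine in exchange for neutral amino acids, and mutations in either cause cystinuria. Slc7a9 was at 10.79, 11.17, 11.18, 10.91 and 11.55 in knockout and at 10.93, 11.13, 10.55, 11.05 and 10.81 in control. The groups overlapped, with a difference of 0.23 (SE 0.15, limma adjusted p = 0.594). It was 0.12 without knockout 5 and 0.14 without control 3. Slc3a1 ranged from 11.7 to 12.3 in both groups, with a difference of 0.04 (SE 0.15) and an interval of -0.29 to 0.36. Its sign turned without knockout 5, control 3 or control 5, and with the ileum covariate, where Slc7a9 turned too.

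The difference between Slc7a9 and Slc3a1 within an array was 0.19 higher in knockout (SE 0.08). Its two-sided exact permutation p was 0.0556, and 0.0556 after Benjamini-Hochberg over the 3 differences within arrays that were tested. Slc6a19 (B0AT1), the sodium-dependent carrier of neutral amino acids whose loss causes Hartnup disorder, stood at 11.40, 11.73, 11.69, 11.32 and 11.92 in knockout and at 11.53, 11.72, 10.91, 11.29 and 11.41 in control. The groups overlapped, and the difference was 0.24 (SE 0.16, limma adjusted p = 0.592). It was 0.12 without control 3 and 0.03 with the ileum covariate. The 95% intervals of the 3 brush border genes all held 0, with upper ends of 0.36 to 0.58.

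Arrays of a group differed among themselves, and knockout 5 and control 3 stood apart in the mean of the carriers of the cell's own supply. Single genes did not all follow 1 pattern. In control 5, Slc38a2, at 9.54, was above controls 1, 2 and 4, while Slc7a1, at 6.62, was the lowest of the controls. The mean of Slc7a5, Slc7a1, Slc1a4, Slc1a5 and Slc38a2 around their gene means was -0.38 in knockout 5, against 0.29 to 0.69 in the other knockout arrays. In control 3 it was 0.29, against -0.71 to -0.05 in the other controls. The brush border genes lay the other way in these arrays: their mean was 0.43 in knockout 5, the highest of its group, and -0.46 in control 3, the lowest of its group. In control 3, Slc7a11, at 4.26, was the third highest of the controls, and Slc1a4, at 6.37, was below control 1.

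Genes of dividing cells moved with these arrays. Of 7 measured proliferation markers, all 7 had higher values in knockout and 0 passed limma's adjusted test. An unadjusted limma p under 0.05 was seen in 4 of the 7, and in 12.1% of all genes. Their mean was -0.44 in knockout 5, against 0.33 to 0.74 in the other knockout arrays, and 0.43 in control 3, against -0.92 to -0.19 in the other controls. With a covariate for crypt genes (each array's mean over lists of proliferation, stem cell and Paneth markers), Slc7a11 stood at 1.67 (limma adjusted p = 0.00433), Slc7a5 at 1.00 (0.0260) and Slc1a4 at 0.62 (0.0431), so that 3 of the 10 passed. The same 3 passed with array weights. Calls over all 22180 genes rose as well, from 76 to 215 with the crypt covariate and to 142 with array weights. Ileal genes were higher in 5 of 5 cases, with array means of -1.42 to 1.67 in knockout and -1.20 to -0.20 in control, and T cell genes lower in 5 of 5, at -1.24 to 0.51 against -0.14 to 1.18. Array means of 3 secretory lineage lists (enteroendocrine, tuft and goblet) did not overlap between the groups. Those of Paneth cell genes did overlap, at -0.81 to 0.69 in knockout and -2.03 to 1.00 in control. Enteroendocrine genes were lower in 7 of 7 cases, at -0.46 to 0.03 in knockout and 0.14 to 0.31 in control. Of these, 2 were called, where 0.171% of all genes were called lower. Tuft cell genes were lower in 4 of 4, at -0.36 to -0.07 against 0.02 to 0.33, and goblet cell genes in 6 of 6, at -0.29 to 0.04 against 0.05 to 0.29. Of the ileal, T cell, tuft and goblet genes, 0 were called. At an unadjusted limma p under 0.05 stood 4 of 5 ileal, 3 of 5 T cell, 4 of 4 tuft and 5 of 6 goblet genes. Over all genes 12.1% did, and 49.9% had a higher value in knockout. The part of T cells and secretory cells in the carriers' values was not tested.

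**Figure D3:**
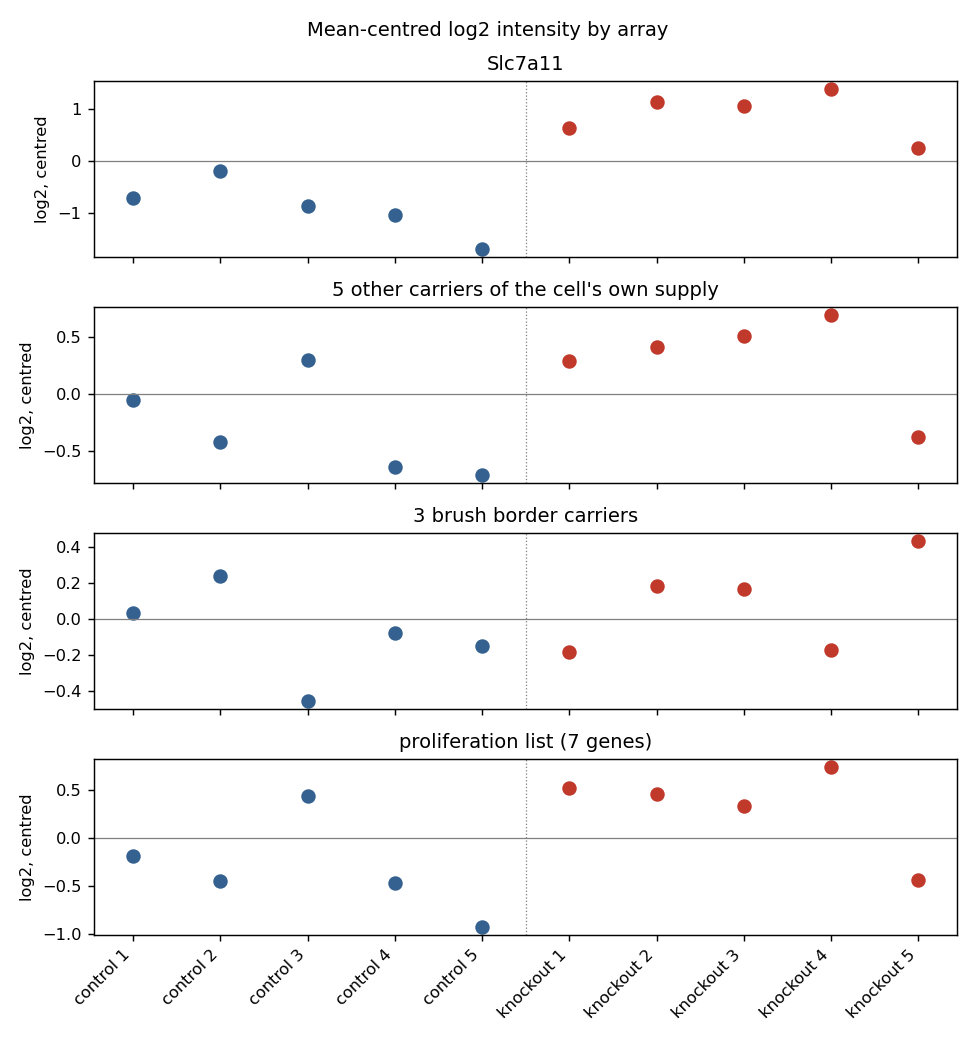
Log2 intensity around each gene's mean over the 10 arrays (vertical axis, own scale per panel) by array, for Slc7a11, for the mean of 5 other carriers of the cell's own supply, for the mean of 3 brush border genes and for the mean of 7 proliferation markers. Knockout 5 and control 3 lie apart from their groups in the lower panels, and Slc7a11 keeps the groups separate.

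The genes with the profile most like that of Slc7a11 were found by the root mean square difference between centred log2 values over the 10 arrays. They were Psat1, an enzyme of serine synthesis (0.25), Mboat1, a lysophospholipid acyltransferase (0.33), Asns, asparagine synthetase (0.44), Bcl2l15 (0.44) and Gsr, glutathione reductase (0.47). Slc7a11 itself varied by 1.00 around its mean by the same measure. Because its groups differed by 1.79, any gene with a similar group difference is near by this measure. Psat1 shared its extremes with Slc7a11: knockout 4 was the highest array and control 5 the lowest for both. Psat1 was picked for its nearness over these same arrays, so this is no further evidence of likeness.

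**Figure D4:**
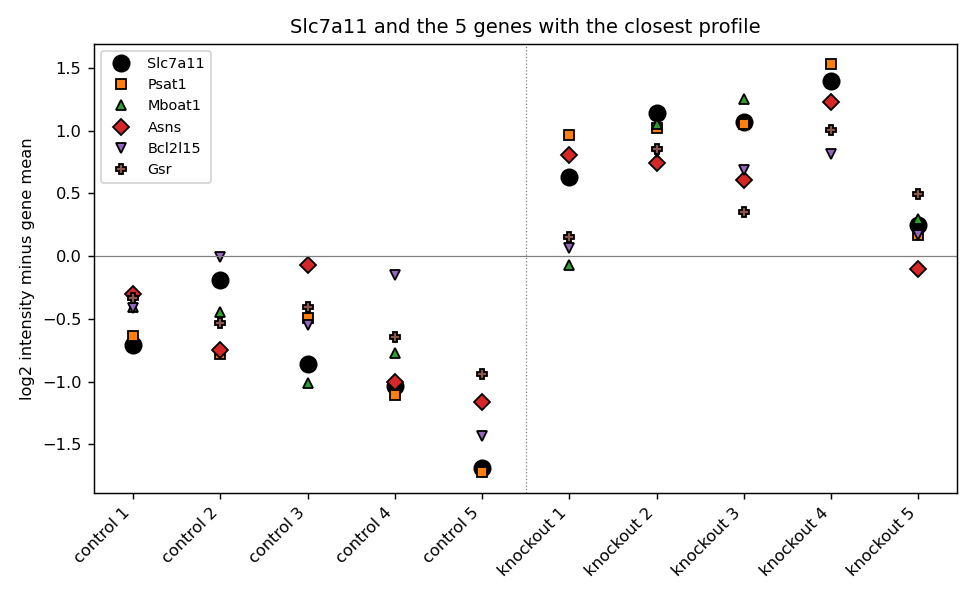
Log2 intensity minus the gene's mean (vertical axis) by array for Slc7a11 and the 5 genes with the smallest root mean square difference from it, which run from 0.25 for Psat1 to 0.47 for Gsr. Knockout 5 is the lowest knockout array for Slc7a11, Psat1 and Asns, and Asns overlaps between the groups.

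Other amino acid carriers were drawn from a wider list, and 0 of the 26 measured passed limma's adjusted test. Among 11 other apical carriers, values were higher for 6 and lower for 5, and the median difference was 0.02. An unadjusted limma p under 0.05 was seen in 3 of the 11, and in 12.1% of all genes. The smallest p belonged to Slc6a20b at -0.51 (SE 0.12, limma adjusted p = 0.107), then Slc36a4 at 0.65 (SE 0.21), Slc6a20a, an imino acid carrier, at -0.28 (SE 0.12), and Slc1a1, a carrier of glutamate, aspartate and cysteine, at 0.62 (SE 0.30). Among 15 basolateral and housekeeping carriers, 9 were higher and 6 lower, with a median of 0.07 and 4 at an unadjusted p under 0.05. Slc7a8 (LAT2), another light chain of Slc3a2, stood at -0.38 (SE 0.09, limma adjusted p = 0.106), against 0.43 (SE 0.17) for Slc38a1, a glutamine carrier, 0.23 (SE 0.10) for Slc16a10, an aromatic amino acid carrier, and 0.18 (SE 0.08) for Slc43a1. Slc6a20a and Slc6a20b are close relatives whose probes may not tell them apart.

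The brush border partners were not called either, with 0 of 5 measured genes past limma's adjusted test. At an unadjusted limma p under 0.05 stood 2 of the 5, where 12.1% of all genes did. Cltrn (collectrin), a partner of Slc6a19 in the kidney, stood at -0.20 (SE 0.09). Its signal was dim, with means of 3.58 in knockout and 3.77 in control, where a change may not be measurable. Enpep, Anpep and Dpp4, peptidases of the brush border, stood at 0.19, 0.09 and 0.03 (SE 0.09, 0.08 and 0.09).

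Values of the 21 measured ATF4 targets outside the carriers were higher for 18 and lower for 3, with a median difference of 0.36. Of the 21, 4 rose and 17 did not pass, where 0.171% of all genes passed with a higher value. At an unadjusted limma p under 0.05 stood 10 of the 21, and 12.1% of all genes. The 4 were Psat1 at 1.89 (SE 0.26), Eif4ebp1, a repressor of translation, at 0.87 (SE 0.13), the transcription factor Atf5 at 0.63 (SE 0.10) and the glutathione-degrading Chac1 at 0.96 (SE 0.15), with limma adjusted p of 0.0154 to 0.0264. The mean of this list was lowest among knockout arrays in knockout 5, at -0.04. Of 11 measured NRF2 targets outside the carriers, 1 rose, Gsr (1.14, SE 0.17, limma adjusted p = 0.0185), and the median was 0.05. An unadjusted limma p under 0.05 was seen in 5 of the 11, in both directions. Pgd, an enzyme of the pentose phosphate pathway, stood at 0.43, and Gclc and Gclm, the subunits of the first enzyme of glutathione synthesis, at -0.48 and -0.32 (SE 0.10, 0.12 and 0.12).

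Among 11 regulators, 0 passed limma's adjusted test and the median was 0.00219. At an unadjusted limma p under 0.05 stood 2 of the 11, where 12.1% of all genes did. Eif2ak3 (PERK), the kinase that answers endoplasmic reticulum stress, was at -0.52 (SE 0.12, limma adjusted p = 0.0853) and Eif2ak2 (PKR), which answers double-stranded RNA, at 0.53 (SE 0.15). Myc was at 0.52 (SE 0.25) and the Atf4 transcript at 0.17 (SE 0.12). ATF4 is controlled largely by translation, which arrays do not measure.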

How the data were processed

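The authors deposited RMA intensities on a linear scale, which per the submitters' processing notes came from RMA in Affymetrix Expression Console 1.4.1.46, from 400 ng of RNA per the labels' protocols. Its other settings: not given in the sources used here. RMA brings arrays to a shared distribution, so a shift of most transcripts would not be seen. Values ran from 1.8 to 15278.7, and log2 was taken first. Of 41345 probe sets, 23521 had 1 symbol in GEO's platform annotation, and the brightest was kept for each of 22180 genes. Of these, 21994 matched RefSeq (GRCm38.p6) by Entrez ID.

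Groups came from the titles. Nothing says that each array is a separate animal, so p-values cover only the spread among these 10 samples, part of which may be technical. The number of arrays limits the precision. The test was limma 3.58.1 (R 4.3.3; lmFit and eBayes, group only), with Benjamini-Hochberg over all genes and 0.05 as the threshold. Differences within arrays had two-sided exact permutation tests (SciPy 1.17.1). The limma test was tried on simulated data (knockout against control, 22180 independent genes). There it recovered 46% of 50 genes shifted by 0.5, 80% of 100 shifted by 1 and 100% of 50 shifted by 2, and 13 of 166 calls were false. Shifted genes were drawn at random, each with its own spread. These shares need not hold for a given carrier, such as Slc7a5 (SE 0.29).

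Named were all 10 carriers, Pcyt1a, called genes and up to 4 genes of each regulatory or transport list by smallest p, and the 5 genes most like Slc7a11. Members and lists were chosen with earlier results of these data known. Alternatives were other scalings, filters, probe set choices and variance models, covariates, array weights, a replicate block and omission of arrays. A planned test of the gap between the Slc7a11 probe sets, with quantile normalization of all single-symbol probe sets added after seeing the data, is not used, since the second probe set is too dim.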

Additional observations from a re-analysis of the deposited data

Results flagged for a closer look

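In 2 of 24 groups of 5 arrays examined, 1 array lay far from the rest by Dixon's criterion, which chance meets in about 1 in 20 groups. Knockout 5 had the lowest Slc7a1 value of its group, 6.84, with the next array at 7.84. Control 3 had the highest Slc38a2 value of its group, 10.1, with the next at 9.54. These are the arrays that stood apart in the mean of the carriers of the cell's own supply other than Slc7a11, and in that of the proliferation markers.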

How the results depend on the processing

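Slc7a11 kept its direction under all 21 alternatives and passed in 15, with differences of 0.95 (mean of its probe sets, which still passed) to 1.97. It did not pass with the ileum covariate (1.53) or in 5 of 10 omissions of 1 array, where values ran from 1.59 to 1.97. The number of the 10 carriers that passed was 1, and became 3 with array weights, 3 with the crypt covariate, 2 at a threshold of 0.1, 0 with the ileum covariate and 0 to 2 with 1 array left out. Slc7a5 passed with array weights (1.27) and the crypt covariate (1.00). Over all genes 76 passed, against 261 at the threshold of 0.1, 142 with array weights, 215 with the crypt covariate, 1 with the ileum covariate, 186 without knockout 1 and control 5 together, and 11 to 268 with 1 array left out. The cause was not tested. The ileum list mean follows the groups apart from knockout 1, so the fit with it is no test of position along the gut. With the replicate number as a block 27 genes passed. Over all genes, same-numbered arrays' deviations correlated at -0.135 to 0.125, and 0 of 5 knockout arrays correlated best with their own number. This check cannot show whether same-numbered arrays share a factor for single genes. The block ended no call among the carriers. With it the SE was 0.16 for Slc7a11, 0.21 for Slc7a5 and 0.19 for Slc7a1, against 0.26, 0.29 and 0.29 without. For Slc3a2 and Slc7a9 the SE was slightly higher with the block. Signs turned for Slc38a2 with the crypt covariate (-0.0228) and in omissions (-0.0585 to 0.18), for Slc3a1 with the ileum covariate (-0.22) and in omissions (-0.0389 to 0.13), and for Slc7a9 with the ileum covariate (-0.0641). With 1 array left out, Slc7a9 minus Slc3a1 was 0.15 to 0.24 and passed only without control 4 (0.24, exact p = 0.0159), and Slc7a11 minus Slc3a2 was 1.79 to 2.19. Depth does not apply to arrays; the dim signal of Slc7a11 in control limits its fold change.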
